A study of Xenopus laevis with 72 samples.

Results

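Embryos that had received a pulse of retinoic acid (RA) were followed through their recovery. They made up 24 of the 72 samples of the series, chosen by their treatment label and compared between times within each clutch. The samples were whole wild type embryos of the frog Xenopus laevis, exposed to 10 nM RA for 2 h from stage 9.5 to stage 10.25, washed, and collected 0, 1.5, 3 and 4.5 h after the wash. Each time was sampled once in each of 6 clutches, named G to L, where a clutch is the progeny of a single female, and each sample pooled 5 to 10 embryos. The remaining samples came from the same clutches and times, 24 from unexposed controls and 24 from embryos exposed for the same 2 h to 50 uM DEAB, an inhibitor of retinaldehyde dehydrogenase. All 23 target genes of the panel and the reference gene gapdh were assayed by quantitative PCR in every sample, and 7 values of hoxd3.L were missing in the RA embryos.

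RA is made from retinol (vitamin A) in a pair of oxidation steps, the first reversible and giving retinaldehyde, the second irreversible and giving RA. Cells remove RA by hydroxylation through enzymes of the CYP26 family and can also send retinaldehyde back to retinol. RA bound to its nuclear receptors activates target genes that include hox genes, which set position along the head-to-tail axis, and several genes of RA turnover itself. X. laevis carries many genes as a pair of copies from its ancestral subgenomes, marked L and S.

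Levels are given as log2 relative expression, the threshold cycle (Ct) of gapdh minus that of the gene, centred so that 0 is the median of that gene over all 72 samples. A difference of 1 is thus a 2-fold change, and values of unlike genes cannot be set against each other. In whole embryos a change can come from more cells with a transcript or from more transcript per cell, which cannot be told apart here, and the panel holds no marker of single tissues. The label of the pulse was checked at 0 h with dhrs3.L (gene ID 444269), the gene of an enzyme that turns retinaldehyde back into retinol. Its values ran from -1.18 to 0.04 in RA embryos and from -3.99 to -2.69 in controls, with no overlap. The ranges of cyp26a1.S did not overlap at 0 h either, whereas those of hoxb1.S, hoxb4.S, hoxd4.L, cyp26c1.L and cyp26a1.L did. The 0 h mean of hoxb4.S was -2.545 after RA and -2.452 in controls, and that of hoxd4.L -2.09 and -2.25. The later comparison of dhrs3.L with controls uses the same 0 h values and is not independent of this check. The RA sample of clutch G at 0 h stood apart for cyp26a1.L, at -4.72 against -0.55 to 0.09 in the other clutches. It also lay below the control values of that gene at 0 h, which ran from -3.385 to -1.865. The dhrs3.L value of the same sample lay within the range of the other RA clutches. Several results that rest on this sample are given with and without clutch G.

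The first question was which genes rose, stayed flat or fell once the RA was gone. Over the whole 4.5 h, 22 of 23 target genes passed the test (95.7%; limma, adjusted p under 0.05), of which 20 rose (87%) and 2 fell (8.7%). Relative to gapdh, more genes passed in the first step than in the later ones. Between 0 and 1.5 h 18 genes passed (78.3%), 16 as higher (69.6%) and 2 as lower (8.7%). Between 1.5 and 3 h 9 rose (39.1%), and between 3 and 4.5 h 10 rose (43.5%). No gene passed as lower in the later steps (0 of 23 in each), where rdh13.L between 1.5 and 3 h came closest and passed without clutch J. The median change over the panel was 1.60, 0.83 and 0.51 in the successive steps and 2.85 overall. In an F test over all 4 times 21 of 23 genes passed (91.3%), and the 2 that did not were cyp26a1.S and stra6.L.

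**Figure D1:**
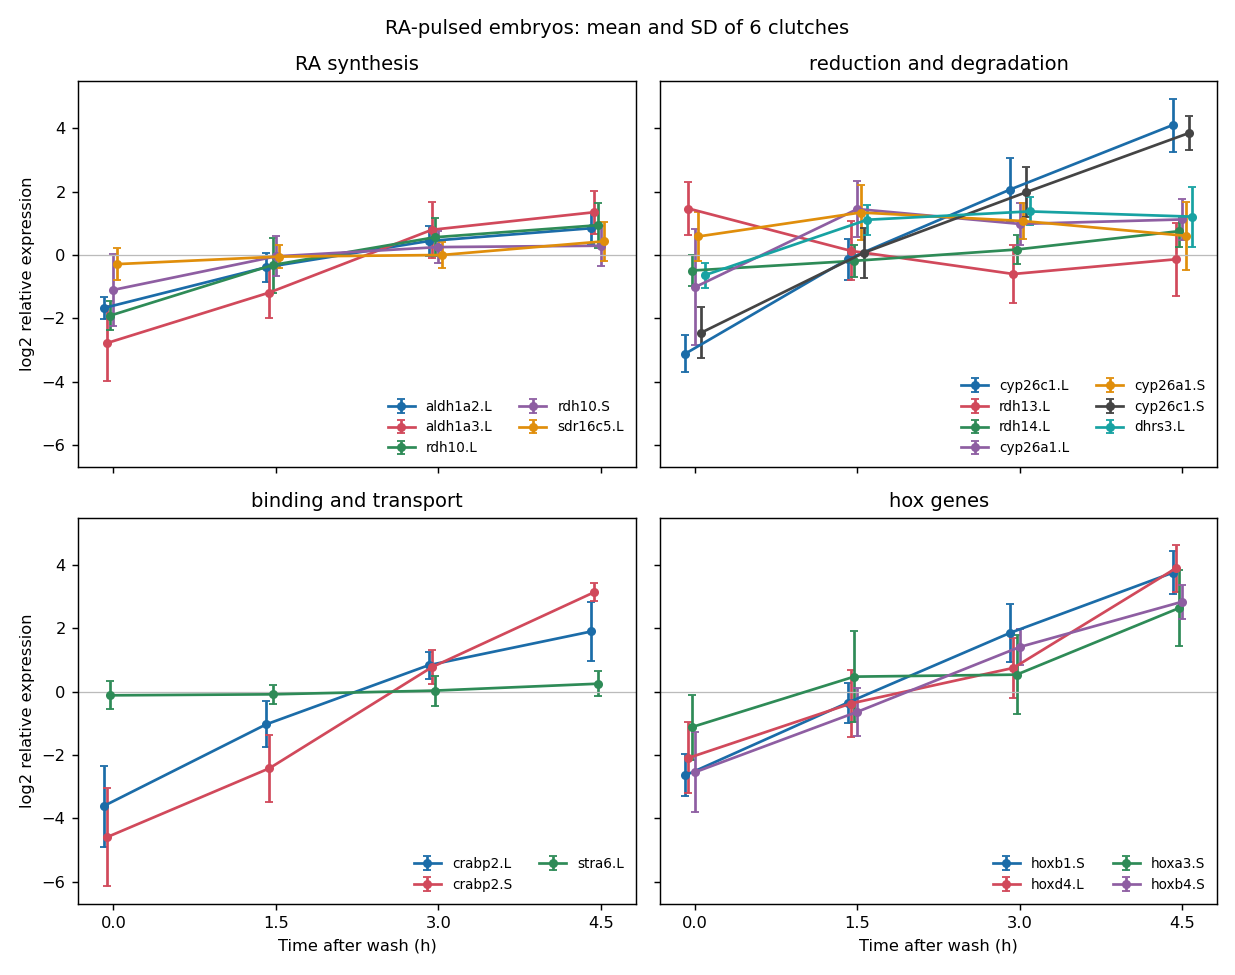
Mean log2 relative expression (points) and SD (bars) of 6 clutches against the time after the wash in hours, in 4 panels by gene role. The cyp26c1 genes, crabp2.S, hoxb1.S and hoxb4.S climb through the whole period. By contrast, dhrs3.L and cyp26a1.L have no called change relative to gapdh after 1.5 h, and rdh13.L drops. Not drawn are hoxd3.L, with missing values, and 3 further genes. With the panel mean as reference the 4.5 h changes of aldh1a2.L, rdh10.L, rdh10.S and sdr16c5.L (synthesis) lie below 0, that is, below the mean change of the panel.

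These directions are relative to gapdh, whose own Ct averaged 12.3 ± 0.76 just after the wash and 13.9 ± 1.01 (SD, n = 6 each) 4.5 h later. It was higher at 4.5 h in 5 of 6 clutches, by 1.63 ± 1.53 cycles (exact two-sided sign-flip test over the clutches, p = 0.0625), and controls moved by 1.30 ± 1.17 cycles in the same way. With raw Ct values and no reference, the median change of all genes over 4.5 h moved by -1.63, and 12 genes were called higher and 4 lower. Taking the mean of all target genes but hoxd3.L as reference (the panel mean) it moved by -3.24, with 7 genes higher and 10 lower. With that reference the changes of these genes average 0 by construction, so a gene that rose less than their mean lies below 0. Such a value places a gene relative to the panel and does not show that it fell. Raw Ct values are not corrected for the amount of cDNA in a sample, so a negative change without a reference does not show a fall either. In the steps the counts without a reference were 7 higher and 2 lower, 7 and 1, and 7 and 0, and those with the panel mean were 4 and 6, 6 and 8, and 6 and 5. With either alternative, rises were thus no more frequent in the first step than in the later ones. The 7 genes called higher over 4.5 h with every reference were cyp26c1.L, cyp26c1.S, crabp2.L, crabp2.S, hoxb1.S, hoxb4.S and hoxd4.L. Those called lower with every reference were rdh13.L and hoxd3.L, the latter with only 3 values at 0 h. In the first step cyp26c1.L, cyp26c1.S, crabp2.L and hoxb1.S were called higher with every reference, and rdh13.L and hoxd3.L lower. Between 1.5 and 3 h this held for 6 genes (cyp26c1.L, cyp26c1.S, crabp2.S, hoxb1.S, hoxb4.S and aldh1a3.L), and between 3 and 4.5 h for 6 (cyp26c1.L, cyp26c1.S, crabp2.S, hoxb1.S, hoxd4.L and hoxa3.S), while the other calls in these steps ended with at least 1 of the alternative references.

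Among the genes of RA removal the cyp26c1 pair, which encodes an RA-hydroxylating enzyme, rose in every step. cyp26c1.L (gene ID 108696124) had a lowest, median and highest value of -3.81, -3.00 and -2.49 at 0 h, and of -1.06, 0.03 and 0.66 at 1.5 h. At 3 h the values were 0.95, 1.79 and 3.78, and at 4.5 h 2.66, 4.44 and 4.76. The ranges of successive times did not overlap until the last step, where clutch H at 3 h lay above clutches K and L at 4.5 h. The steps measured 2.99 (SE 0.33), 2.20 and 2.04, each in 6 of 6 clutches, and the whole rise 7.22 (95% interval 6.54 to 7.91, adjusted p = 5.01e-13), or 149-fold. cyp26c1.S (gene ID 735026) went from a median of -2.74 at 0 h to 0.02, 1.67 and 4.05, with steps of 2.52, 1.91 and 1.87, also each in 6 of 6 clutches. Control means rose too over 4.5 h, from -3.88 to 2.61 for cyp26c1.L and from -2.86 to 2.94 for cyp26c1.S.

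The cyp26a1 pair, of the same enzyme family, did otherwise. cyp26a1.L (gene ID 496314) ran from -4.72 to 0.09 at 0 h (median -0.37), from 0.24 to 2.88 at 1.5 h (median 1.36), from 0.40 to 2.06 at 3 h (median 0.85) and from 0.36 to 2.28 at 4.5 h (median 0.96). All 6 values at 1.5 h lay above all 6 at 0 h, and after that the ranges covered each other. It rose by 2.47 in the first step (SE 0.56, adjusted p = 7.53e-04 in limma, 6 of 6 clutches), or by 1.82 without clutch G, and its change over 4.5 h was 2.14, or 1.35 without clutch G. The later steps were -0.47 (95% interval -1.65 to 0.71) and 0.14 (-1.04 to 1.32), neither past the threshold. cyp26a1.S (gene ID 398094) had medians of 0.64, 1.78, 1.04 and 0.56 at the successive times, with ranges that overlapped throughout. Its change over 4.5 h was 0.02 (95% interval -0.94 to 0.98, higher in 3 of 6 clutches), and its first step was 0.76 (-0.20 to 1.71, 5 of 6 clutches).

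dhrs3.L rose in the first step, and its later steps did not pass. Its median went from -0.65 to 1.20 in the first 1.5 h and then to 1.46 and 1.66. All clutches at 1.5 h (0.51 to 1.69) lay above all clutches at 0 h, and 5 of 6 clutches stayed above the 0 h range until 4.5 h, while clutch L was back at -0.44. The first step was 1.75 (SE 0.22, adjusted p = 2.17e-06, 6 of 6 clutches), which is 94.7% of the change seen over 4.5 h, and the later ones were 0.26 (95% interval -0.20 to 0.73) and -0.17 (-0.63 to 0.30). With the panel mean as reference the whole change of dhrs3.L was -1.39 and that of cyp26a1.L -1.10.

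rdh13.L (gene ID 444106), of the retinol dehydrogenase family, was the gene that fell with a value in every sample. It ran from 0.78 to 3.04 at 0 h (median 1.12), from -0.61 to 1.82 at 1.5 h (median -0.08), from -1.58 to 0.96 at 3 h (median -0.68) and from -1.69 to 1.23 at 4.5 h (median -0.05). The ranges overlapped, with clutch G the highest at each of the first 3 times, yet each of the 6 clutches dropped in the first step. That step was -1.34 (SE 0.34, adjusted p = 0.00158). Between 1.5 and 3 h the difference was -0.73 (adjusted p = 0.0822, 6 of 6 clutches lower), between 3 and 4.5 h 0.47 (adjusted p = 0.322), and over 4.5 h -1.60 (SE 0.34, adjusted p = 2.24e-04, lower in 5 of 6 clutches). In controls the mean of rdh13.L also went down, from 1.39 at 0 h to -0.51 at 4.5 h. The change over 4.5 h after RA differed from that in controls by 0.30 (95% interval -0.57 to 1.18), which did not pass. rdh14.L (gene ID 108717195), of the same family, had steps of 0.31 and 0.36 that did not pass, and rose by 0.58 in the last step (adjusted p = 0.0218, 6 of 6 clutches), a call lost without clutch J or L. Of the 7 genes of reduction and degradation, 4 rose and 1 fell in the first step, 2 and 3 rose in the later ones, and 5 rose and 1 fell over 4.5 h (median 1.85 against 2.85 for the panel). The shares that rose in the panel were 69.6%, 39.1% and 43.5% in the steps and 87% over 4.5 h. Of the 5 that rose, cyp26a1.L, dhrs3.L and rdh14.L lay below 0 over 4.5 h with the panel mean as reference and rdh14.L also without one.

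**Figure D2:**
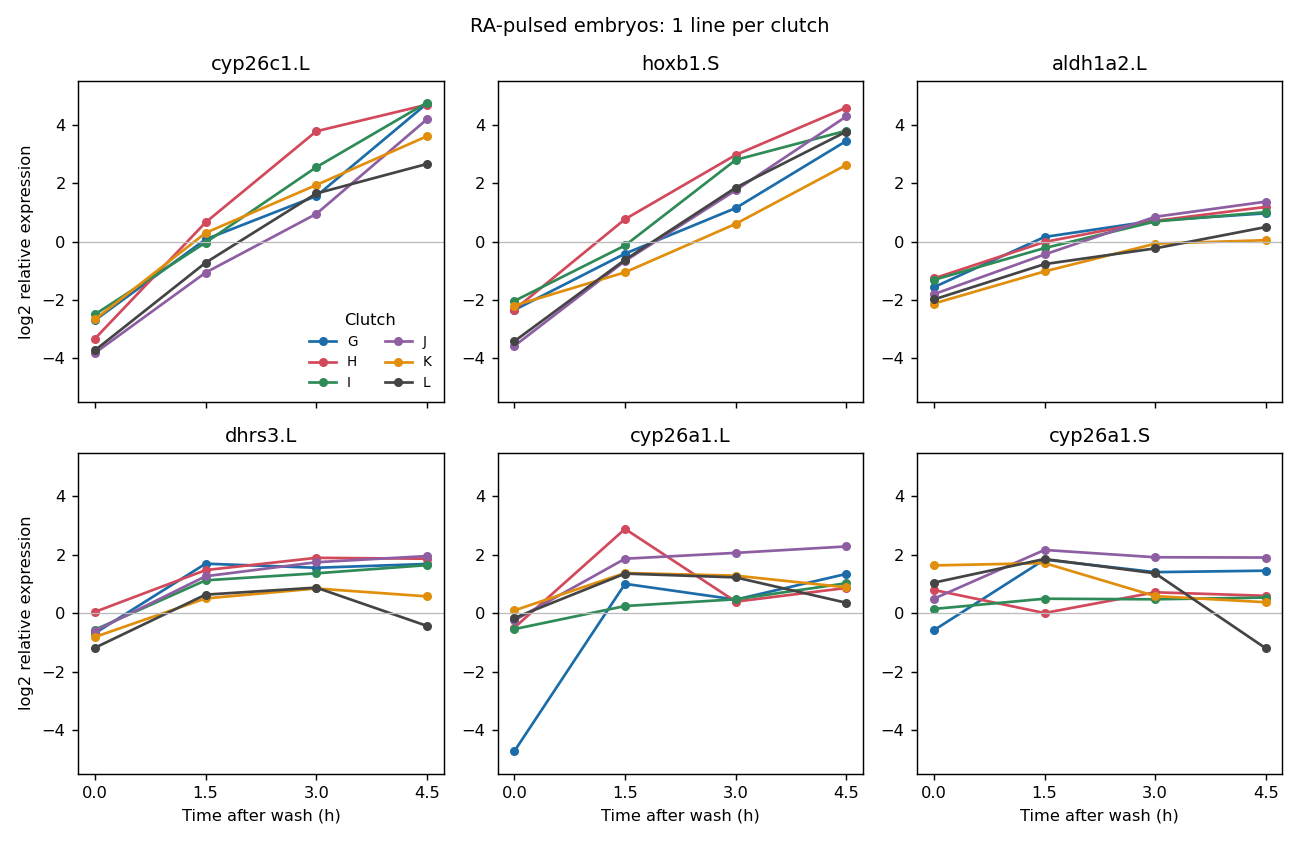
Log2 relative expression of 6 genes in RA embryos against the time after the wash in hours, with 1 line for each clutch. cyp26c1.L, hoxb1.S and aldh1a2.L climb in every clutch, dhrs3.L and cyp26a1.L have no called change relative to gapdh after 1.5 h, cyp26a1.S has no common course, and the low cyp26a1.L value of clutch G at 0 h (-4.72) and the drop of clutch L at 4.5 h in dhrs3.L and cyp26a1.S stand out.

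All 5 genes of RA synthesis rose over 4.5 h (median 2.52), as did 87% of the whole panel (median 2.85), but with raw Ct values rdh10.S and sdr16c5.L, and with the panel mean also aldh1a2.L and rdh10.L, lay below 0. aldh1a2.L (gene ID 399389), the main retinaldehyde dehydrogenase of the early embryo, was at -2.12, -1.68 and -1.26 (lowest, median and highest) at 0 h and at -1.02, -0.33 and 0.16 at 1.5 h. It reached -0.23, 0.70 and 0.85 at 3 h and 0.05, 0.99 and 1.37 at 4.5 h. Every clutch rose in every step, by a mean of 1.29 (SE 0.16), 0.83 and 0.40, the last only just past the threshold (adjusted p = 0.0492) and lost without any 1 of the clutches, and the whole rise was 2.52 (95% interval 2.18 to 2.86, adjusted p = 3.25e-11). aldh1a3.L (gene ID 733178), another retinaldehyde dehydrogenase, rose by 1.60 and 1.98 in the first steps and by 4.13 in all, with a last step of 0.56 (-0.54 to 1.65). Control means also rose over 4.5 h, from -1.47 to 0.72 for aldh1a2.L and from -2.79 to 1.30 for aldh1a3.L. The changes after RA differed from those in controls by 0.33 (95% interval -0.20 to 0.87) and 0.04 (-1.27 to 1.35), and neither difference passed.

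The retinol-oxidizing enzyme RDH10 was measured through both copies of its gene. rdh10.L (gene ID 446860) had medians of -1.83, -0.06, 0.53 and 0.90 at the successive times and rose by 1.60 in the first step and by 0.88 in the next (adjusted p = 0.0322), the latter call being lost without clutch I (0.55), J or L or without the clutch block. rdh10.S (gene ID 431995) had medians of -0.71, -0.03, 0.21 and 0.38 and rose by 1.06 in the first step (adjusted p = 0.00762, 5 of 6 clutches). That rise was 3.37 in clutch G against -0.14 to 0.96 in the others, and without clutch G it was 0.60 (adjusted p = 0.0285). sdr16c5.L (gene ID 444148), whose product also oxidizes retinol, passed over 4.5 h and in no single step, with 0.72 (95% interval 0.29 to 1.16, higher in 4 of 6 clutches). The 4.5 h changes after RA lay above those in controls, but none of these differences passed in limma. They were 0.805 for rdh10.L (adjusted p = 0.172, 6 of 6 clutches), 1.16 for rdh10.S (adjusted p = 0.0674, 5 of 6) and 0.36 for sdr16c5.L (adjusted p = 0.395, 5 of 6). For rdh10.S clutch G stood at 5.28 and the other clutches at -0.09 to 0.80.

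The cellular RA-binding protein CRABP2, which carries RA to its receptors, is encoded by the pair that held the largest change of the 23 genes over 4.5 h. crabp2.S (gene ID 108700362) was at -6.15, -4.90 and -1.85 (lowest, median and highest) at 0 h and at -3.88, -2.25 and -1.29 at 1.5 h. It then reached 0.08, 0.73 and 1.65 at 3 h and 2.65, 3.23 and 3.42 at 4.5 h. The last 3 times did not overlap, and the spread between clutches shrank from an SD of 1.55 at 0 h to 0.29 at 4.5 h. It rose in each step in 6 of 6 clutches, by 2.18, 3.19 and 2.37, and by 7.74 in all (SE 0.49, adjusted p = 3.25e-11), or 214-fold. crabp2.L (gene ID 378522) rose by 2.58 and 1.87 in the first steps, and its last step of 1.06 did not pass (95% interval 0.10 to 2.03, adjusted p = 0.0666). stra6.L (gene ID 108711302), which in mammals encodes a receptor for retinol uptake, had medians between -0.16 and 0.16 at all times. Its change over 4.5 h was 0.37 (95% interval 0.01 to 0.72, adjusted p = 0.0463, higher in 4 of 6 clutches), a call that ended under many alternatives and turned to -1.26 without a reference. All 4 genes of binding and transport passed as higher over 4.5 h (median 3.20), against 87% of the panel (median 2.85). In the first and the second step 2 of them did, and 1 in the last, where the panel had 69.6%, 39.1% and 43.5%, while without a reference and with the panel mean stra6.L and 1 other lay below 0.

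Of the 7 hox genes, 6 rose and hoxd3.L fell over 4.5 h (median 3.76), close to the share of 87% that rose in the panel (median 2.85), and 1 of the 6 lay below 0 with the panel mean as reference. hoxb1.S (gene ID 108702519) was at -3.57, -2.33 and -2.03 (lowest, median and highest) at 0 h and at -1.05, -0.51 and 0.77 at 1.5 h. It went on to 0.61, 1.80 and 2.97 at 3 h, and 2.63, 3.79 and 4.59 were reached at 4.5 h. Clutch H was the highest from 1.5 h on and clutch K the lowest, and every clutch rose in every step. The steps were 2.29, 2.21 and 1.90 and the whole rise 6.40 (SE 0.32, adjusted p = 1.55e-12). hoxb4.S (gene ID 734796) followed with steps of 1.91, 2.05 and 1.43, each in 6 of 6 clutches, the last lost without clutch J.

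In 2 hox genes the last step was the largest. hoxd4.L (gene ID 100380950) had medians of -1.89, -0.27, 0.23 and 3.86, and all clutches at 4.5 h (2.69 to 4.93) lay above all clutches at 3 h (-0.01 to 2.04). Its steps were 1.72, 1.12 (adjusted p = 0.0822, 6 of 6 clutches) and 3.15 (SE 0.51, adjusted p = 9.19e-05), so that 47.5% of the rise over 4.5 h was present at 3 h. Its first step was 1.13 without clutch H. hoxa3.S (gene ID 379985) had 44.1% by then, with steps of 1.59 (1.06 without clutch H), 0.06 (SE 0.50, adjusted p = 0.902) and 2.10 (adjusted p = 0.00228, 6 of 6 clutches). Its median at 4.5 h was 2.98, with clutch K at 0.35 and the other 5 at 2.56 to 3.53. These shares were not tested, and both genes were weakly expressed, with a mean Ct of 20.6 and 21.2 in RA samples. Controls also rose late, from a mean of 0.62 at 3 h to 3.79 at 4.5 h for hoxd4.L and from -0.06 to 1.78 for hoxa3.S. The last step after RA differed from that in controls by -0.02 for hoxd4.L (95% interval -1.73 to 1.69) and by 0.27 for hoxa3.S (-1.60 to 2.14).

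hoxd3.L (gene ID 100036911) was measured in 3 of 6 RA samples just after the wash and in 3, 5 and 6 of them at the later times. Its values at 0 h were 5.35 in clutch G, 2.62 in clutch H and 9.45 in clutch K, above nearly all later ones, which ran from -3.58 to -1.79 at 1.5 h, from -1.29 to 0.42 at 3 h and from 1.60 to 3.28 at 4.5 h. No clutch had a value at both 0 and 1.5 h, so the first difference (-8.25, SE 1.54) was set across clutches through the fitted clutch effects. It rose by 2.71 in the last step (adjusted p = 0.0377, 5 of 5 clutches), a call lost without clutch G, I, J or L. The fall over 4.5 h (-3.63) was seen in 2 of the 3 clutches with both values and was -1.34 without clutch K, where it no longer passed, and -5.96 without clutch H. Whether the high values at 0 h are transcripts of this gene was not tested.

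**Figure D3:**
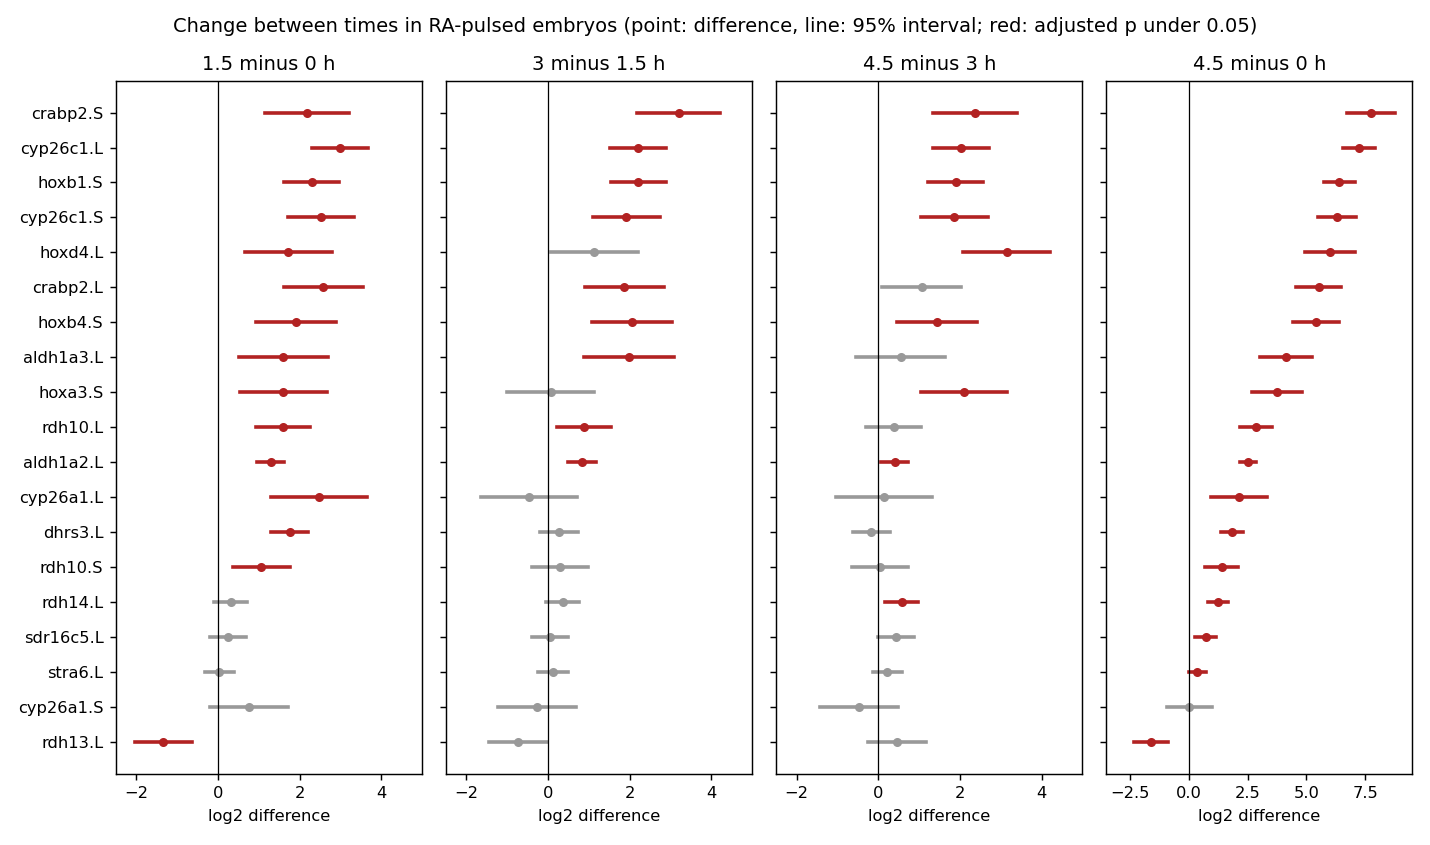
Difference in log2 relative expression between times in RA embryos (points) with its 95% interval (lines), for 19 genes ordered by the change over 4.5 h, in red where the adjusted p was under 0.05. Relative to gapdh, fewer genes pass in either later step than in the first, and the change over 4.5 h runs from -1.60 for rdh13.L to 7.74 for crabp2.S.

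Read step by step and relative to gapdh, 6 genes rose in all 3 intervals, namely aldh1a2.L, cyp26c1.L, cyp26c1.S, crabp2.S, hoxb1.S and hoxb4.S. Of these, only cyp26c1.L, cyp26c1.S and hoxb1.S were called higher in every interval with every reference, and aldh1a2.L was so called in none. The genes aldh1a3.L, crabp2.L and rdh10.L rose in the first and the second interval and then did not pass, and hoxd4.L and hoxa3.S rose in the first and the last. A rise in the first interval alone was found for 5 genes, among them cyp26a1.L, dhrs3.L and rdh10.S, a fall in the first interval alone for rdh13.L, and a rise in the last interval alone for rdh14.L. With every reference crabp2.L held in the first interval, aldh1a3.L in the second, and hoxd4.L and hoxa3.S in the last. The fall of rdh13.L also held, whereas the rises of cyp26a1.L, dhrs3.L, rdh10.L, rdh10.S and rdh14.L were not called with every reference. The panel mean asks for a rise beyond that of the panel, so this does not show that these genes failed to rise relative to gapdh. For 4 genes no single step passed, among them cyp26a1.S, sdr16c5.L and stra6.L. A step that did not pass is not shown to be flat, and its interval gives the changes that remain possible. Development went on during these hours, and recovery and development cannot be told apart from the RA embryos alone.

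The course of RA embryos was therefore set against that of the controls of the same clutches, and the difference between the changes was tested. Over 4.5 h 2 of 23 genes had a lower change in RA embryos (8.7%) and 0 a higher one (6 genes had an unadjusted p under 0.05), and with the panel mean as reference the counts were 5 and 2. dhrs3.L rose by 1.85 after RA, whereas control medians went from -3.32 at 0 h to 0.95 at 4.5 h. The difference of the changes was -2.33 (SE 0.35, 95% interval -3.02 to -1.64, adjusted p = 1.89e-07, 6 of 6 clutches), and it passed with each reference. RA embryos began above the control range and ended at a median of 1.66, where the ranges overlapped. The other gene was hoxd3.L (-8.99), which had no clutch with all 4 values.

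Step by step, the difference of dhrs3.L passed only between 1.5 and 3 h, where RA embryos moved by 0.26 and controls went from a median of -1.15 to one of 0.63. It came to -1.34 there (adjusted p = 0.0064, 6 of 6 clutches), the 1 gene of 23 called in that step (4.35%), a call lost without a reference (-1.19), with the panel mean (-0.79) and without the clutch block. In the first step dhrs3.L differed by -0.41 (95% interval -1.11 to 0.28) and in the last by -0.57 (-1.27 to 0.12), and the steps were not tested against each other. The cyp26a1 genes differed alike between 1.5 and 3 h, by -1.75 for cyp26a1.L (adjusted p = 0.0548) and -1.45 for cyp26a1.S (adjusted p = 0.0815), each lower in 6 of 6 clutches but not past the threshold, although without clutch G cyp26a1.L passed (-1.70, adjusted p = 0.0128). Over 4.5 h cyp26a1.L differed by -1.15 (adjusted p = 0.172), or by -2.20 (adjusted p = 1.36e-04) once clutch G was left out. For cyp26a1.S the corresponding values were -1.44 (adjusted p = 0.0651) and -2.33 (adjusted p = 3.65e-04), so the call of either gene turned on that clutch.

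In the first step the changes of cyp26c1.L and cyp26c1.S after RA lay 1.55 and 1.56 above those in controls, in 6 of 6 clutches each. Neither passed with all 72 samples in the fit (adjusted p = 0.186 for each), and both did with only RA and control samples (adjusted p = 0.0455). The first step of hoxb4.S likewise lay 1.26 above that in controls, in 6 of 6 clutches, and did not pass in limma (adjusted p = 0.28). Only hoxd3.L was called in that step (1 of 23, 4.35%; 4 genes with an unadjusted p under 0.05), and 0 of 23 were called between 3 and 4.5 h (0 with an unadjusted p under 0.05, and 0 by the exact sign-flip test after adjustment). Between 1.5 and 3 h cyp26c1.L and cyp26c1.S differed from controls by -0.68 and -0.67, lower in 5 of 6 clutches each. Over 4.5 h they differed by 0.73 (95% interval -0.61 to 2.08) and 0.50 (-0.80 to 1.80). None of these differences passed. Over the whole period the courses of crabp2.S, hoxb1.S and hoxd4.L differed from the control courses by -0.24 (95% interval -1.93 to 1.45), 0.06 (-1.41 to 1.53) and -0.05 (-1.76 to 1.66). These intervals are wide, and differences as large as their bounds could not be told from 0.

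**Figure D4:**
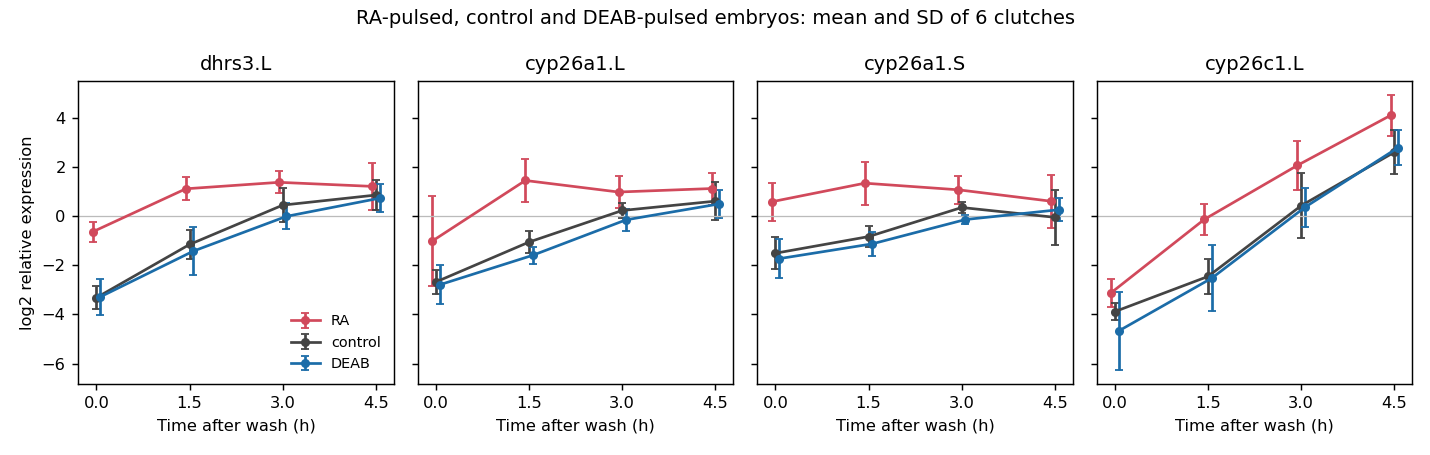
Mean log2 relative expression (points) and SD (bars) of 6 clutches against the time after the wash in hours, in RA-pulsed, control and DEAB-pulsed embryos. dhrs3.L starts higher after RA (median -0.65 against -3.32 in controls) and the courses close in by 4.5 h, while the mean of cyp26c1.L is higher at each later time in all 3 groups.

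Against DEAB embryos, which had been exposed to an inhibitor of RA synthesis, 3 of 23 genes had a lower change after RA over 4.5 h (13%) and 0 a higher one. RA itself was not measured. The 0 h means after DEAB and in controls were -3.29 and -3.32 for dhrs3.L, and -1.73 and -1.51 for cyp26a1.S. dhrs3.L differed by -2.17 (SE 0.35, adjusted p = 1.1e-06, 6 of 6 clutches) and cyp26a1.S by -1.97 (SE 0.55, adjusted p = 0.00541, 5 of 6 clutches), and hoxd3.L was the other. The call of cyp26a1.S was lost without clutch K (-1.75) or L (-1.54). cyp26a1.L differed by -1.15 (adjusted p = 0.226), but by -2.29 without clutch G, where it passed (adjusted p = 6.63e-05). The comparisons with controls and with DEAB embryos share the RA samples.

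The copies of duplicated genes were compared by the change of L minus S within each sample. Over 4.5 h, 4 of 5 pairs diverged (80%). The L copy rose more for cyp26a1, by 2.12 (95% interval 1.07 to 3.17, adjusted p = 6.96e-04, 6 of 6 clutches), or by 1.74 without clutch G (adjusted p = 0.00756). At 1.5 h the difference was 1.71 (adjusted p = 0.0116, 6 of 6 clutches), and it no longer passed without clutch G (1.39, adjusted p = 0.0964). The S copy rose more for crabp2, by 2.23 (L minus S -2.23, 95% interval -3.27 to -1.19, adjusted p = 6.96e-04, 6 of 6 clutches). The difference was 1.46 for rdh10 (adjusted p = 0.0101, 5 of 6 clutches), lost without clutch J (1.19), and 0.92 for cyp26c1 (adjusted p = 0.0448, 5 of 6 clutches), lost without the clutch block and without clutch G, I, J or K. Unequal efficiency of the assays of the copies stretches such differences and was not tested, nor was the divergence tested against that in controls. Control means of the L and S copies also moved unequally over 4.5 h, with the same copy rising more. They went from -2.68 to 0.61 and from -1.51 to -0.045 for cyp26a1, and from -4.34 to 1.57 and from -4.99 to 2.99 for crabp2. For rdh10 they went from -1.325 to 0.72 and from -0.355 to -0.12, and for cyp26c1 from -3.88 to 2.61 and from -2.86 to 2.94.

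**Figure D5:**
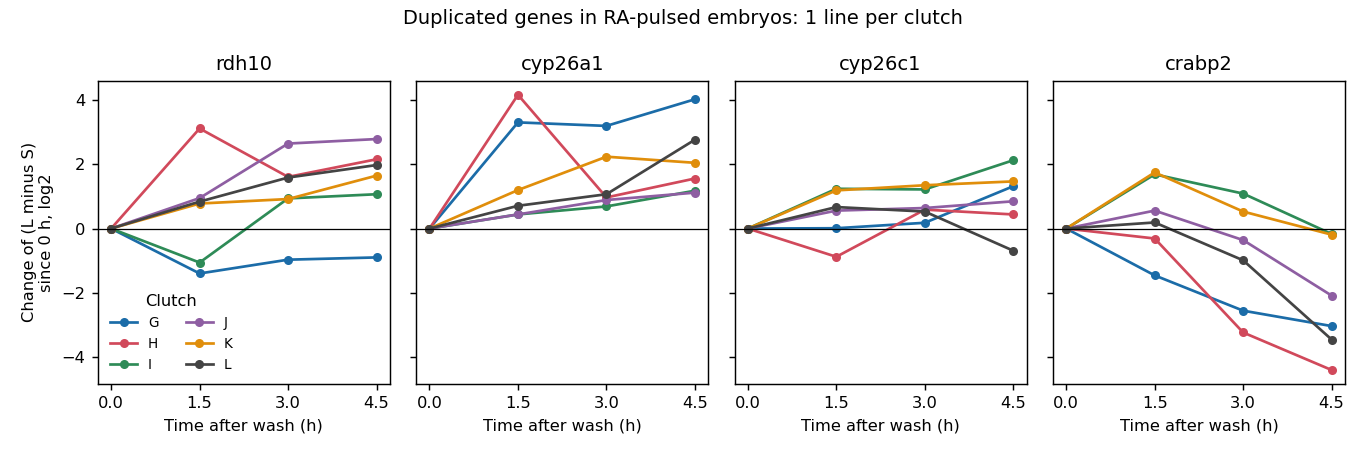
Change since 0 h in the difference between the L and the S copy (log2) against the time after the wash in hours, with 1 line for each clutch of RA embryos. At 4.5 h all 6 clutches lie above 0 for cyp26a1 and below 0 for crabp2, and 5 of 6 lie above 0 for rdh10 and cyp26c1.

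The changes over the genes were correlated between clutches, and their median size differed between clutches. Over the 22 genes with complete values, the 4.5 h changes of a clutch correlated with the mean of the other clutches by r = 0.84 in G to 0.96 in J, a description across genes that share samples and reference. The median change of a clutch over 4.5 h ran from 1.90 in K to 3.80 in J, and 19 to 22 of the 22 genes were higher at 4.5 h in every clutch. The median SD of a gene between clutches was 0.83, 0.78, 0.57 and 0.64 at the successive times, and at 4.5 h 13 of the 22 genes (59.1%) had all 6 values above all 6 values at 0 h. In the single steps 8 of 22 genes (36.4%), 3 (13.6%) and 3 (13.6%) had such separate ranges, always with the later time higher. cyp26c1.L had them in the first and the second step, and crabp2.S in the second and the last.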

How the data were processed

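Per the labels, RNA was purified from whole embryos and reverse transcribed. The authors preamplified the cDNA with pooled primers, measured it on a microfluidic PCR array with EvaGreen dye, and kept the median over 3 preamplifications. They deposited 2 tables, one with log2 relative expression and one with Ct values. From the latter, the 1637 deposited log2 values of the target genes were rebuilt to within 0.001, by subtracting a gene's Ct from that of gapdh in the same sample and then centring each gene on its median over all 72 samples. Unequal amplification efficiency and a change of gapdh can both affect these values. The number of molecules behind a Ct is not known, so that precision comes from the 6 clutches alone (median SE 0.39 for the 4.5 h change). Ct ran from 10.04 to 26.1 in RA samples. Genes with a mean Ct above 20 in RA samples were taken as weakly expressed, namely hoxd4.L, hoxa3.S, hoxd3.L and aldh1a3.L.

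Groups and clutches came from sample titles. RefSeq (Xenopus_laevis_v10.1) gave names for all 24 gene IDs, and none of its coordinates were used. For hoxd3 and gapdh the methods list S copies, whereas the files write hoxd3.L and gapdh, and the files' names were kept. Tests used limma (version 3.58.1, R 4.3.3) on the log2 values of the 24 RA samples with clutch as a fixed block, and on all 72 samples for differences between courses. P values were adjusted by Benjamini-Hochberg over the 23 target genes of a comparison, with a threshold of 0.05. Standard errors of the gene with missing values used its own design matrix. The letters pair the samples because a clutch comes from 1 female. Residuals about the time means had a mean correlation of 0.35 for samples of 1 clutch, with clutch means from -0.06 to 0.53. For samples of different clutches it was -0.10, a value that subtracting the time means pulls below 0. The change of gapdh was tested by an exact two-sided sign-flip test over the clutches (64 assignments, smallest p 0.03125).

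Members and gene lists, which follow the study's panel, were chosen with earlier results of these data known. Full statistics were kept to up to 8 genes per comparison that passed, moved in the same direction in at least 5 of 6 clutches and had the largest change, with dhrs3.L and the cyp26 genes followed at every time and the others given by values or by list. Statistics of others, such as rdh10.L, rdh14.L, stra6.L and hoxd3.L, were added after their values were seen. 3 genes are part of every fit and count but are not reported singly. Before use, the model was run on simulated panels, where it recovered 94.4%, 58.25% and 5.4% of genes changed by 2, 1 and 0.5 (log2). Of 100 panels without a change, 6 held a call. The simulated noise was independent between genes, so an error of gapdh shared by all genes was not covered. Plots used matplotlib 3.10.9.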

Additional observations from a re-analysis of the deposited data

Results flagged for a closer look

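Within the RA embryos 159 sets of 5 or 6 clutch values were examined, and 14 held a clutch far from the others (Dixon's criterion), where chance gives about 1 in 20 sets. The sets are levels and changes of the same values and share a reference, so the number of such sets was not tested against that rate. Among levels, clutch G at 0 h stood at -4.72 for cyp26a1.L, with the others at -0.55 to 0.09, and at 0.43 for rdh14.L, with the others at -0.92 to -0.43. Clutch H at 1.5 h stood at 1.56 for cyp26c1.S (others -0.62 to 0.08) and at 0.91 for hoxb4.S (others -1.04 to -0.81), and clutch K at 4.5 h at 0.35 for hoxa3.S (others 2.56 to 3.53).

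Among changes between 0 and 1.5 h, clutch H stood at 3.98 for cyp26c1.L (others 2.46 to 3.00), clutch K at 0.56 for crabp2.S (others 2.27 to 2.78) and clutch G at 3.37 for rdh10.S (others -0.14 to 0.96). Between 1.5 and 3 h clutch H stood at -2.49 for cyp26a1.L (others -0.54 to 0.23). Between 3 and 4.5 h clutch L stood at -2.57 for cyp26a1.S (others -0.21 to 0.06) and at -1.31 for dhrs3.L (others -0.27 to 0.28). Over 4.5 h clutch J stood at 3.17 for aldh1a2.L (others 2.17 to 2.53), and clutch G at 6.07 for cyp26a1.L (others 0.52 to 2.53) and at 3.30 for rdh10.S (others 0.52 to 1.46).

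The change with time differed between treatments by the limma test of the difference itself for 3 genes. Against controls dhrs3.L differed by -1.34 between 1.5 and 3 h and by -2.33 over 4.5 h, and hoxd3.L by -9.69 between 0 and 1.5 h and by -8.99 over 4.5 h. Against DEAB embryos dhrs3.L differed by -2.17, cyp26a1.S by -1.97 and hoxd3.L by -7.63 over 4.5 h. No clutch had the values of hoxd3.L needed for the comparisons with controls, and 1 had those for DEAB.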

How the results depend on the processing

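The counts of genes called over 4.5 h and by the F test stayed within 1.5 times of 22 and 21 under every alternative run. These counts leave out direction. Over 4.5 h 20 genes were higher and 2 lower with gapdh, 12 and 4 without a reference, and 7 and 10 with the panel mean. Of 1307 values of the 79 named differences under the alternatives, 1179 kept their direction and side of the threshold, 78 lost the threshold, 16 gained it and 34 changed sign. The cause of these changes was not tested. The count of 18 genes for 1.5 minus 0 h was 9 on raw Ct values and 10 against the panel mean, the count of 9 for 3 minus 1.5 h was 14 with the panel mean, and the count of 10 for 4.5 minus 3 h ran from 6 (without clutch J) to 10 with 1 clutch left out. The exact sign-flip test with adjustment gave 18 genes over 4.5 h and 0 in each of these steps. It also gave 0 in each comparison with control or DEAB courses where limma had called any. With 6 clutches it allows no p under 0.03125. After adjustment a gene can thus pass only where many reach that value together, so the counts of 0 do not show that nothing changed.

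For RA against control courses, the count of 1 for 1.5 minus 0 h was 3 with only the 2 treatments compared and 0 with weakly expressed genes or hoxd3.L left out, the latter setting chosen after seeing the data. The count of 1 for 3 minus 1.5 h was 0 under either other reference, 2 with weakly expressed genes left out, and 1 to 2 with 1 clutch left out (2 without G). With no replicate block it was 0, and with clutch as a random block 2. The count of 2 over 4.5 h was 5 with no reference, 7 with the panel mean, 1 with weakly expressed genes or hoxd3.L left out, and 2 to 5 with 1 clutch left out (5 without G, 4 without J). The 4 called pairs were 2 to 4 with 1 clutch left out (2 without J), and 3 with no replicate block. With no replicate block the other counts moved by less than 1.5 times.

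Signs turned mostly with the reference. By construction, a rise smaller than that of the panel mean turns negative with that reference. Changes without a reference are not corrected for the amount of cDNA. With no reference gene, cyp26a1.S was at -0.02 for 1.5 minus 0 h, dhrs3.L at -0.24 for 3 minus 1.5 h and cyp26a1.L at -0.20 for 4.5 minus 3 h. Over 4.5 h cyp26a1.S was at -1.60, rdh10.S at -0.23, rdh14.L at -0.38, sdr16c5.L at -0.90 and stra6.L at -1.26. With the panel mean cyp26a1.S was at -0.68 for 1.5 minus 0 h, dhrs3.L at -0.65 and rdh10.L at -0.039 for 3 minus 1.5 h, and cyp26a1.L at -0.75 for 4.5 minus 3 h. Over 4.5 h it gave -0.72 for aldh1a2.L, -1.10 for cyp26a1.L, -3.22 for cyp26a1.S, -1.39 for dhrs3.L, -0.39 for rdh10.L, -1.85 for rdh10.S, -2.00 for rdh14.L, -2.52 for sdr16c5.L and -2.88 for stra6.L. Against controls for 1.5 minus 0 h cyp26a1.S was at -0.22 with no reference and -0.26 with the panel mean, and cyp26c1.L against DEAB at 0.026 with the panel mean.

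With 1 clutch left out, signs turned for these differences. cyp26a1.L for 4.5 minus 3 h ran from -0.006 to 0.34 (negative without G), dhrs3.L for 4.5 minus 3 h from -0.25 to 0.064 (positive without L) and cyp26a1.S over 4.5 h from -0.38 to 0.48 (negative without G, I or J). Against controls cyp26a1.S ran from -0.31 to 0.39 for 1.5 minus 0 h and from -0.60 to 0.42 for 4.5 minus 3 h, and cyp26c1.L for 4.5 minus 3 h from -0.45 to 0.036. Against DEAB cyp26c1.L ran from -0.56 to 0.20. None of these differences had passed the test.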
